A study of Homo sapiens with 12 samples.

Results

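The genes that supply deoxynucleotides (dNTPs) for DNA synthesis were followed in WT and PARP3-/- A549 cells with and without pyridostatin. A set of 9 genes was taken by symbol from the deposited table. The rule used no values, but the genes were chosen with earlier results of these data known. They were RRM1, RRM2 and RRM2B, the subunit genes of ribonucleotide reductase, TYMS, TK1 and DCK, which make or salvage deoxynucleotides, and DUT, SAMHD1 and DCTPP1, which break down or clean the dNTP pool. They are 9 of 25365 names in the table, and all 9 were among the 11881 tested genes, whose mean over the libraries was 1 FPKM or more (FPKM, a transcript level scaled to transcript length and library depth). The A549 line is epithelial and was derived from a lung adenocarcinoma. Pyridostatin is a ligand that binds and stabilizes G-quadruplex (G4) DNA. The 12 RNA-seq libraries formed 4 groups of 3 biological replicates, namely WT A549 cells given vehicle, PARP3-/- A549 cells given vehicle, WT cells given 1 µM pyridostatin and PARP3-/- cells given 1 µM pyridostatin, each for 24 h. The PARP3-/- cells carried a Cas9-made deletion in the first exon of PARP3 and came from serial dilution, so that genotype and clone cannot be told apart.

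Ribonucleotide reductase converts ribonucleotides to deoxyribonucleotides and is the committed step of dNTP supply. Its large subunit RRM1 pairs with the small subunit RRM2, which cells make in S phase and degrade afterwards, or with RRM2B (p53R2), a small subunit whose gene is a transcriptional target of p53 and which serves DNA repair and mitochondrial DNA outside S phase. Thymidylate is made de novo by TYMS from dUMP or salvaged from thymidine by TK1, a kinase of S phase, while DCK phosphorylates deoxycytidine, deoxyadenosine and deoxyguanosine. DUT hydrolyses dUTP, which keeps uracil out of DNA and yields the substrate of TYMS, DCTPP1 removes dCTP and modified dCTP, and SAMHD1 hydrolyses dNTPs to nucleosides and lowers the pool outside S phase.

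The libraries held about 24130000 to 34200000 reads, as estimated from the steps between the lowest FPKM values, which put the 9 genes at about 324 to 8990 reads per library. WT vehicle replicate 2 stood apart from the other 11 libraries. Its deviation from the mean of its group changed by -0.061 on the log2 scale for each doubling of transcript length. The libraries of the other groups had slopes of -0.014 to 0.019. WT vehicle replicates 1 and 3 had 0.032 and 0.028, but deviations within a group sum to 0, so these mirror replicate 2. Within its group WT vehicle replicate 2 held the lowest value of RRM1, RRM2, RRM2B, DCK and SAMHD1 and the highest of TYMS, TK1, DUT and DCTPP1. Results whose call it changed are given with and without it. PARP3 itself stood at 3.73 ± 0.293 FPKM in WT vehicle, 4.41 ± 0.447 in PARP3-/- vehicle, 3.79 ± 0.243 in WT pyridostatin and 4.58 ± 0.245 in PARP3-/- pyridostatin (SD, n = 3 each). The PARP3 transcript was thus not lower in the libraries labelled PARP3-/- but higher in mean with both treatments, a value that includes any transcript with the deletion. Every genotype difference below is a difference between libraries so labelled. CDKN1A, the p53-induced inhibitor of cyclin-dependent kinases, served as a check of the treatment and was at 87.0 ± 7.27 and 100.1 ± 3.90 FPKM with vehicle and at 193 ± 3.40 and 208 ± 8.67 FPKM with pyridostatin in WT and PARP3-/- libraries. All 6 epithelial markers were present, with a summed level of 6912 to 8630 FPKM, whereas none of the 4 alveolar surfactant and lineage markers reached a mean of 1 FPKM. Of the markers of other cell types, CD68 was the 1 of 5 haematopoietic and COL1A1 the 1 of 5 fibroblast genes to reach a mean of 1 FPKM, and none of the 4 endothelial genes reached it.

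The sequences before the transcription starts show which of the members share known promoter words. RefSeq windows on GRCh38.p14 were found for 8 of the 9 genes, the exception being RRM2B, and the 250 bases before each start were searched on both strands. The words were CCAAT, bound by NF-Y, and the E2F words TTTCCCGC, TTTCGCGC, TTTGCCGC and TTTGGCGC, none of which holds the NF-Y word. The CCAAT word was present in 4 of the 8 genes (RRM1, RRM2, TK1 and SAMHD1) and in 32.0% of all 35116 windows. An E2F word was present in 2 of the 8 genes (DUT and TYMS) and in 2.79% of all windows. A gene was counted if any of its windows held the word, and DUT has 4 windows, RRM2 2 and TK1 2. The counts of genes and the shares of single windows are thus unlike measures. The stretches of 30 bases around the matches are printed for RRM2, whose 3 copies before 1 of its 2 annotated starts repeat a pattern (another copy lies before the other start), for TK1, for the first of the 2 words of SAMHD1 and for the E2F words, each on the gene's strand with the matched word, or its reverse complement, in capitals.
RRM2, chr2:10122604-10122633, plus strand: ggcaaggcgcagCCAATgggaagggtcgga
RRM2, chr2:10122634-10122663, plus strand: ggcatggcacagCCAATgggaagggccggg
RRM2, chr2:10122661-10122690, plus strand: ggggcaccaaagCCAATgggaagggccggg
TK1, chr17:78187112-78187141, minus strand: ggccgggcgctgATTGGccccatggcggcg
TK1, chr17:78187081-78187110, minus strand: ggccggctcgtgATTGGccagcacgccgtg
SAMHD1, chr20:36951740-36951769, minus strand: ctgcgcaggaggCCAATaggctgccaatac
DUT, chr15:48332144-48332173, plus strand: gggcggggctgGCGGGAAAtttcggttttg
DUT, chr15:48332159-48332188, plus strand: gaaatttcggtTTTGGCGCgctccctgcgg
TYMS, chr18:657603-657632, plus strand: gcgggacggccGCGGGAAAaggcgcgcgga

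The 3 CCAAT words of RRM2 printed here began 123, 93 and 66 bases before that start. Those of TK1, on the opposite strand, began 77 and 46 bases before 1 of its 2 annotated starts. The E2F words of DUT began 42 and 27 bases before 1 of its 4 annotated starts and that of TYMS 39 bases before its start. A match of letters does not show that a factor binds there. RRM1 held 1 CCAAT word, 28 bases before its start, and its 250 upstream bases are printed whole because no annotated exon overlaps them.
RRM1, chr11:4094435-4094684, plus strand: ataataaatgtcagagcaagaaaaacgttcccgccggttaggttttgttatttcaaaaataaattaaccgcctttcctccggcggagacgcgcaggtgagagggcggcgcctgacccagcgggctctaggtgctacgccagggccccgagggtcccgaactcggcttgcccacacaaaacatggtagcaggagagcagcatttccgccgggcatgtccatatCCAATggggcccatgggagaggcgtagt

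Because pyridostatin binds G4 DNA, the same windows were searched for the G4 pattern (4 runs of at least 3 G with loops of 1 to 7 bases). The pattern was present in 3 of the 8 genes (RRM2, DCK and DUT), each counted over all its windows, and in 23.5% of all single windows. The stretches of DCK and DUT are shown with 1 match each in capitals.
DCK, chr4:70993580-70993609, plus strand: gcGGGCGAGGGCCGAGGGGCAGCTAGGGag
DUT, chr15:48332122-48332151, plus strand: tcccGGGGAGGGGCGGTGGGTGGGGcgggg

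On the FPKM scale, which is per length and allows levels of different genes to be compared, the genes differed widely in level. TYMS had the highest mean over the 12 libraries (148.8 FPKM), followed by TK1 (126.9), DCTPP1 (91.8), RRM2 (81.2), RRM1 (76.3), DUT (36.4), RRM2B (16.4), DCK (12.6) and SAMHD1 (7.56). The ranges over libraries of RRM1 and DUT, of DUT and RRM2B, and of DCK and SAMHD1 did not overlap, whereas all other neighbours in this order overlapped. The order of the group means was not the same in every group, since TK1 (142.6 FPKM) was above TYMS (141.3 FPKM) in PARP3-/- vehicle. RRM2B overlapped DCK in WT vehicle (means of 13.5 and 13.6 FPKM) and was above it, without overlap, in PARP3-/- vehicle (14.2 against 12.8 FPKM), WT pyridostatin (17.6 against 11.8 FPKM) and PARP3-/- pyridostatin (20.4 against 12.3 FPKM). TYMS varied least, with a highest library 1.14 times the lowest, and RRM2B most, with a factor of 2.04. Exons of TYMS overlap ENOSF1 (6.21 FPKM) and TYMSOS (5.14 FPKM) on the opposite strand, those of DCTPP1 overlap ZNF771 (3.09 FPKM) on the opposite strand, and those of DCK overlap MOB1B (3.02 FPKM) on the same strand. SAMHD1 overlaps TLDC2 (0.00383 FPKM) on the opposite strand. RRM2 overlaps AC007240.1 on the same strand, and RRM1 and DUT overlap RRM1-AS1 and AC023355.1 on the opposite strand. No level was available for these last genes. How the counting treated such reads is not given in the sources used here.

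**Figure D1:**
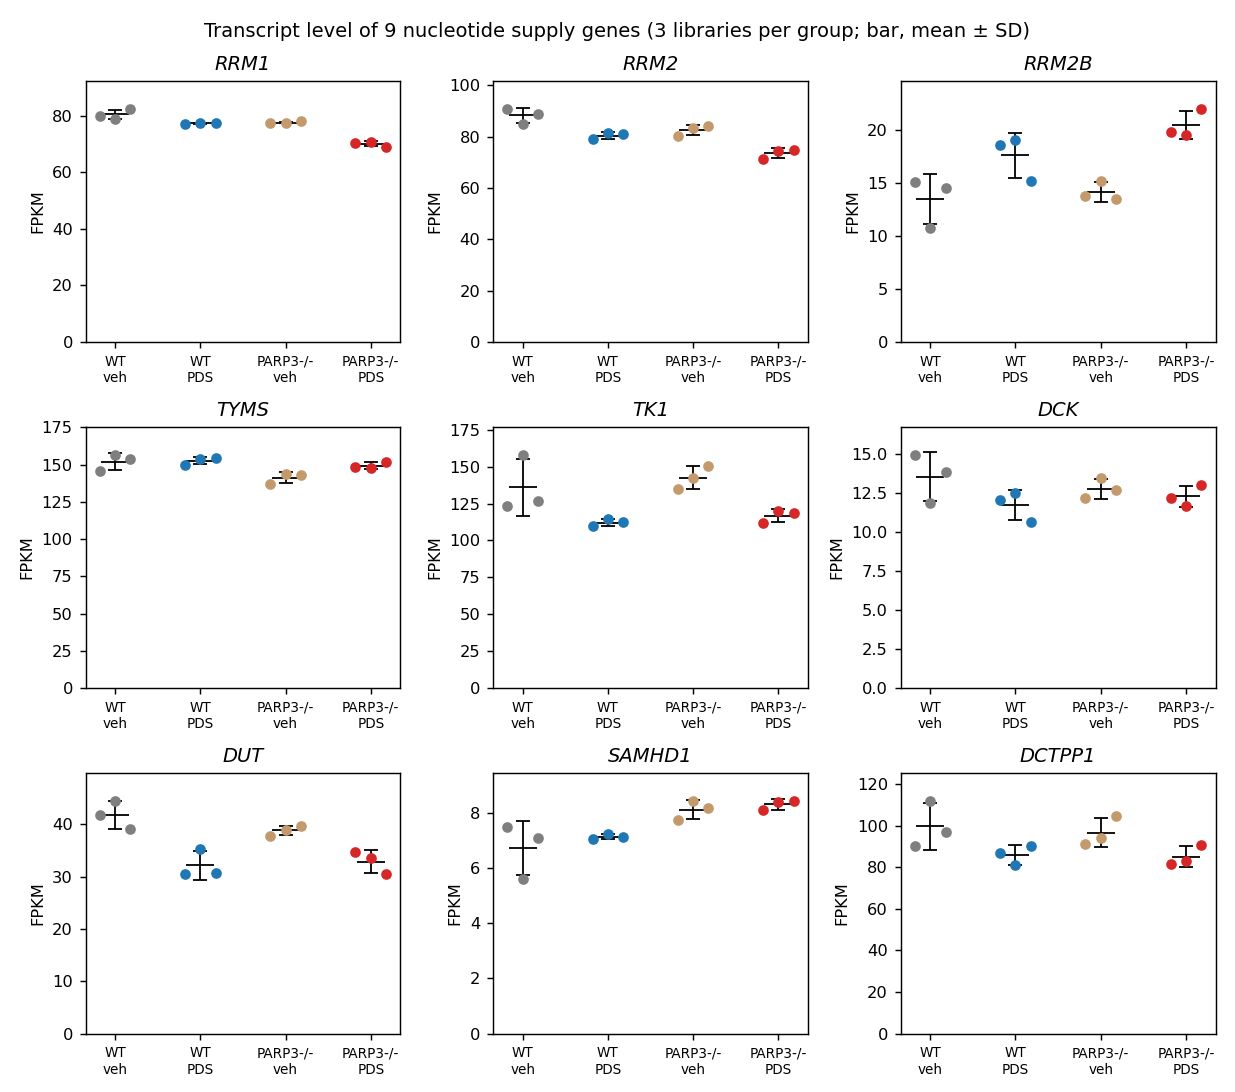
FPKM (vertical axis, from 0) of each of the 9 genes in the 12 libraries, with WT and PARP3-/- cells given vehicle (veh) or pyridostatin (PDS) side by side. Points are libraries and bars the mean ± SD (n = 3), and RRM2B goes from 13.5 and 14.2 FPKM with vehicle to 17.6 and 20.4 FPKM with pyridostatin while RRM1 and RRM2 are lowest in PARP3-/- cells given pyridostatin.

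What 24 h of pyridostatin did to these transcripts was compared within each genotype. In WT cells 1 of the 9 genes passed an adjusted p under 0.05, the fall of DUT, against a background of 4.17% of all tested genes called in either direction, 1.38% lower and 2.79% higher. In libraries labelled PARP3-/-, 3 of the 9 passed, with RRM1 and RRM2 lower and RRM2B higher, against a background of 5.56% in either direction, 2.52% lower and 3.05% higher. None of the 9 also exceeded an absolute log2 fold change of 1, which 0.0505% of genes did in WT and 0.0673% in PARP3-/- libraries. All p-values come from 1 limma model of log2(FPKM + 1) in the 4 groups, with Benjamini-Hochberg adjustment over all tested genes, and fold changes on this scale understate those of low genes. After a shift of the libraries to a common median, which moved the median change of all genes by under 0.1, 45.6% of the calls in WT were higher in place of 66.9%, and DUT remained called. In these bulk libraries, fewer cells in S phase and less RNA of a gene per cell cannot be told apart.

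The large subunit RRM1 was at 79.9, 78.9 and 82.3 FPKM in WT vehicle and at 77.2, 77.5 and 77.4 FPKM in WT pyridostatin. In PARP3-/- cells it was at 77.4, 77.2 and 77.9 FPKM with vehicle and at 70.4, 70.7 and 69.0 FPKM with pyridostatin. Every pyridostatin library lay below every vehicle library of its genotype, and the 3 PARP3-/- pyridostatin libraries were the lowest of all 12. RRM1 fell by 9.55% in PARP3-/- libraries (-0.14 on the log2 scale, SE 0.0283, adjusted p = 0.0156). The call was lost under quantile normalization and without PARP3-/- vehicle replicate 2 or 3 or PARP3-/- pyridostatin replicate 3, each of which leaves 2 libraries in a group (adjusted p up to 0.11 over 21 alternatives). Its change in WT was -0.055 (SE 0.0283, adjusted p = 0.311).

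The S phase small subunit RRM2 was at 90.8, 85.1 and 89.0 FPKM in WT vehicle and at 79.0, 81.4 and 80.9 FPKM in WT pyridostatin. In PARP3-/- cells it stood at 80.2, 83.4 and 84.0 FPKM with vehicle and at 71.4, 74.6 and 74.8 FPKM with pyridostatin. As for RRM1, the groups did not overlap within either genotype, and the PARP3-/- pyridostatin libraries were the lowest of all. RRM2 fell by 10.7% in PARP3-/- libraries (-0.16 on the log2 scale, SE 0.0362, adjusted p = 0.0269). The call was lost in 6 of 21 alternatives, namely under quantile normalization and without PARP3-/- vehicle replicate 2 or 3 or any 1 of the PARP3-/- pyridostatin libraries (adjusted p up to 0.144). The change in WT was -0.13 (SE 0.0362, adjusted p = 0.072), and without WT vehicle replicate 2 it was -0.16 and passed (adjusted p = 0.0216).

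The p53-driven small subunit RRM2B had values of 15.1, 10.8 and 14.6 FPKM in WT vehicle and of 18.6, 19.0 and 15.2 FPKM in WT pyridostatin. In PARP3-/- cells the values were 13.7, 15.2 and 13.5 FPKM with vehicle and 19.8, 19.5 and 22.0 FPKM with pyridostatin. All pyridostatin libraries were above all vehicle libraries of the same genotype, although in WT the gap between 15.1 and 15.2 FPKM was small. RRM2B rose by 0.50 on the log2 scale (SE 0.118, adjusted p = 0.0353) in PARP3-/- libraries, a factor of 1.41. The call was lost in 9 of 21 alternatives, among them those without any 1 of the 6 PARP3-/- libraries or without WT pyridostatin replicate 1 (adjusted p up to 0.143), with a change of 0.45 to 0.55 throughout. The fitted change in WT was 0.37 (SE 0.118, adjusted p = 0.111) and 0.23 without WT vehicle replicate 2. RRM2B was the only 1 of the 9 genes with a fitted increase above 0.1 on the log2 scale under pyridostatin in either genotype.

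The small subunits therefore moved in opposite directions in PARP3-/- libraries, and their ratio describes this in each library. RRM2 exceeded RRM2B by a factor of 6.03, 7.90 and 6.11 in the 3 WT vehicle libraries and of 5.83, 5.48 and 6.22 in the PARP3-/- vehicle libraries. With pyridostatin the factors were 4.25, 4.27 and 5.33 in WT and 3.60, 3.82 and 3.40 in PARP3-/- cells. RRM2B thus made up 13.2% of the summed small-subunit FPKM in WT vehicle, 14.6% in PARP3-/- vehicle, 17.9% in WT pyridostatin and 21.7% in PARP3-/- pyridostatin. RRM2 remained the more abundant small-subunit transcript in all 12 libraries. The ratio of RRM1 to RRM2 moved less, from a mean of 0.911 in WT vehicle to 0.940, 0.962 and 0.952 in PARP3-/- vehicle, WT pyridostatin and PARP3-/- pyridostatin.

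**Figure D2:**
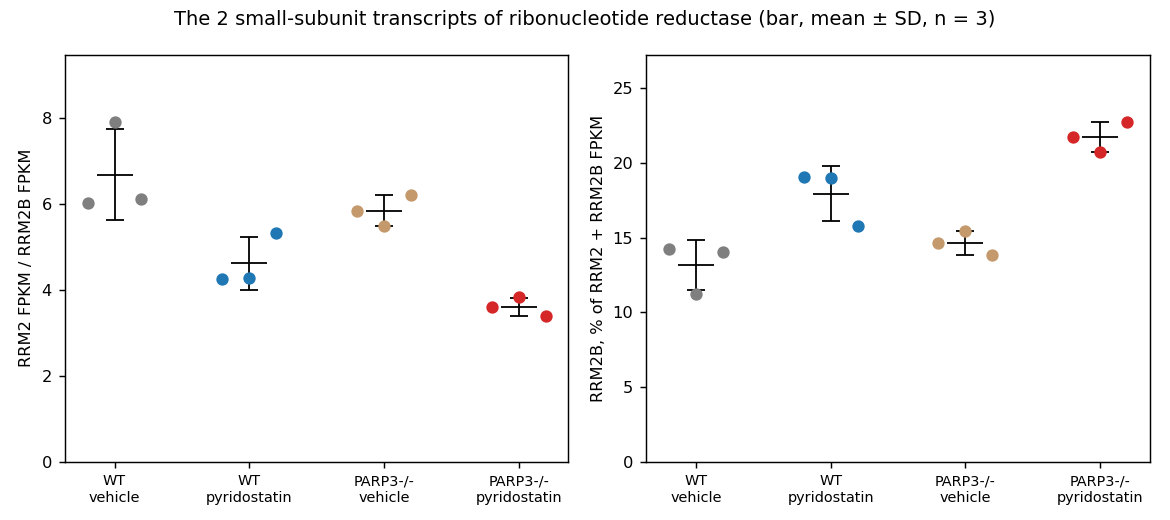
Left, FPKM of RRM2 divided by that of RRM2B, and right, RRM2B in percent of the sum of both, for each library of the 4 groups (points) with the mean ± SD (bars, n = 3). The ratio lies between 5.48 and 7.90 in the 6 vehicle libraries and between 3.40 and 5.33 in the 6 pyridostatin libraries.

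Among the genes of thymidylate synthesis and salvage, none passed the test under pyridostatin in either genotype. TYMS was at 145, 157 and 153 FPKM in WT vehicle and at 149.9, 154 and 154 FPKM in WT pyridostatin, values that overlapped, with a change of 0.0083 (SE 0.0365, adjusted p = 0.927). In PARP3-/- cells TYMS was at 137, 144 and 143 FPKM with vehicle and at 148, 148 and 152 FPKM with pyridostatin, which did not overlap, with a change of 0.079 (SE 0.0365, adjusted p = 0.267). This increase passed in 1 of 21 alternatives, quantile normalization (adjusted p = 0.0469). The 95% intervals, from -0.072 to 0.089 in WT and from -0.0016 to 0.16 in PARP3-/- libraries, exclude a decrease of the size fitted for RRM2 in the same genotype.

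TK1 showed larger differences with more spread. It was at 123, 158 and 126 FPKM in WT vehicle and at 109.6, 114 and 112 FPKM in WT pyridostatin, and at 135, 143 and 150.2 FPKM against 112, 120.0 and 119 FPKM in PARP3-/- cells. The groups did not overlap in either genotype. The changes were -0.27 (SE 0.0822, adjusted p = 0.101) in WT and -0.29 (SE 0.0822, adjusted p = 0.0731) in PARP3-/- libraries. WT vehicle replicate 2 bears on both values, through the mean in WT and through the shared estimate of spread in PARP3-/- libraries. Without that library the change was -0.15 (adjusted p = 0.0924) in WT, and that in PARP3-/- libraries passed (adjusted p = 0.00326). The change in PARP3-/- libraries passed in 4 of 21 alternatives. The others were quantile normalization, the removal of each library's trend with transcript length and the fit of only the compared libraries.

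DCK was at 15.0, 11.9 and 13.8 FPKM in WT vehicle, 12.05, 12.5 and 10.7 FPKM in WT pyridostatin, 12.2, 13.5 and 12.7 FPKM in PARP3-/- vehicle and 12.2, 11.7 and 13.0 FPKM in PARP3-/- pyridostatin. The groups overlapped in both genotypes. The fitted changes were -0.19 (SE 0.0818, adjusted p = 0.232) in WT and -0.052 (SE 0.0818, adjusted p = 0.787) in PARP3-/- libraries.

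Of the genes that break down or clean the pool, DUT was the lowest relative to vehicle. DUT was at 41.7, 44.5 and 39.2 FPKM in WT vehicle and at 30.5, 35.3 and 30.7 FPKM in WT pyridostatin. It fell by 22.6% in WT (-0.37 on the log2 scale, SE 0.068, adjusted p = 0.0145), with every pyridostatin library below every vehicle library. In PARP3-/- cells the values were 37.8, 38.9 and 39.7 FPKM with vehicle and 34.6, 33.5 and 30.4 FPKM with pyridostatin, again without overlap, and the change was -0.24 (SE 0.068, adjusted p = 0.0743). The call in WT was lost in 3 of 21 alternatives, in the fit of WT libraries alone and without WT pyridostatin replicate 1 or 3 (adjusted p up to 0.139). Without WT vehicle replicate 2 the fall in WT was 0.32 (adjusted p = 0.0306) and the change in PARP3-/- libraries passed (adjusted p = 0.0399). The change in PARP3-/- libraries passed in 3 of 21 alternatives, also in the fit of PARP3-/- libraries alone and without WT pyridostatin replicate 2.

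DCTPP1 was at 90.1, 112 and 96.8 FPKM in WT vehicle against 86.9, 80.9 and 90.0 FPKM in WT pyridostatin, a change of -0.21 (SE 0.082, adjusted p = 0.191). In PARP3-/- cells it was at 91.1, 94.2 and 104 FPKM against 81.5, 82.9 and 90.7 FPKM, a change of -0.18 (SE 0.082, adjusted p = 0.253). The groups did not overlap in either genotype, but in both the gap between the nearest libraries was under 1 FPKM. Without WT vehicle replicate 2 the change in WT was -0.12 (adjusted p = 0.347).

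SAMHD1 differed little with pyridostatin. Its values were 7.47, 5.61 and 7.08 FPKM in WT vehicle and 7.04, 7.22 and 7.11 FPKM in WT pyridostatin, and in PARP3-/- cells 7.73, 8.43 and 8.16 FPKM with vehicle and 8.08, 8.39 and 8.41 FPKM with pyridostatin. The groups overlapped in both genotypes. The change was 0.082 (SE 0.0772, adjusted p = 0.6) in WT, where it turned to -0.026 without WT vehicle replicate 2, and 0.030 (SE 0.0772, adjusted p = 0.887) in PARP3-/- libraries.

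A set of 5 of the 9 genes (RRM1, RRM2, TK1, DUT and DCTPP1) had all 3 pyridostatin libraries below all 3 vehicle libraries in WT, and RRM2B had them above. The same was so in PARP3-/- cells, where TYMS was also above. In all tested genes, 9.71% lay apart and lower and 13.4% apart and higher in WT, and 15.7% and 16.6% in PARP3-/- cells. Beside the members' 1 call in WT and 3 calls in PARP3-/- libraries, 6 of the 9 genes in each genotype had an unadjusted p under 0.05, as had 20.3% of all tested genes in WT and 19.6% in PARP3-/- libraries.

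The genotypes were compared next, with each treatment. With vehicle, 0 of the 9 genes passed the limma test, against a background of 9.41% of genes called in either direction, 6.4% higher and 3.01% lower, and 3 of the 9 had an unadjusted p under 0.05, as had 21.6% of all tested genes. The share of higher calls was 68.0%, and 51.7% after the median shift. SAMHD1 showed the largest fitted difference, 0.25 on the log2 scale in PARP3-/- over WT (SE 0.0772, adjusted p = 0.0776), 0.14 (adjusted p = 0.0546) without WT vehicle replicate 2 and 0.32, which passed (adjusted p = 0.0295), without WT vehicle replicate 1. TYMS was at -0.10 (SE 0.0365, adjusted p = 0.12) and RRM2 at -0.096 (SE 0.0362, adjusted p = 0.145). Without WT vehicle replicate 2, RRM2 at -0.12 (adjusted p = 0.0321) and TK1 at 0.19 (adjusted p = 0.028) passed. The fitted difference of RRM2B was 0.079 (SE 0.118, adjusted p = 0.774) with all libraries and -0.063 without that one. The libraries of RRM1, RRM2 and TYMS lay apart and lower and those of SAMHD1 apart and higher, beside 9.17% and 15.0% of all tested genes.

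With pyridostatin, RRM1 and RRM2 passed, both lower in PARP3-/- than in WT libraries. The background was 10.9% of genes in either direction, 3.85% lower and 7.07% higher, a share of 64.8% higher that became 53.1% after the median shift, and 3 of the 9 had an unadjusted p under 0.05, as had 24% of all tested genes. RRM1 was lower, by a factor of 0.907, at 70.0 ± 0.935 FPKM against 77.3 ± 0.160 FPKM (SD, n = 3 each), a difference of -0.14 on the log2 scale (SE 0.0283, adjusted p = 0.0085). RRM2 was lower, by a factor of 0.916, at 73.6 ± 1.89 FPKM against 80.4 ± 1.25 FPKM, a difference of -0.13 (SE 0.0362, adjusted p = 0.0486). The call of RRM1 held in all 21 alternative analyses, with an adjusted p of 0.00169 to 0.042, while that of RRM2 was lost in 15 of the 21, among them those without any 1 of the libraries except WT vehicle replicates 1 and 2 (adjusted p up to 0.147). RRM2B was at 20.4 ± 1.34 FPKM in PARP3-/- and 17.6 ± 2.11 FPKM in WT libraries (difference 0.21, SE 0.118, adjusted p = 0.325), and SAMHD1 at 8.29 ± 0.185 and 7.13 ± 0.0905 FPKM (difference 0.19, SE 0.0772, adjusted p = 0.152), neither overlapping between genotypes. SAMHD1 passed with the same difference in the fit without WT vehicle replicate 2 (adjusted p = 0.00579) and in that of only the 6 compared libraries (adjusted p = 0.017), and in none of the other 19 alternatives. The libraries of RRM1 and RRM2 were apart and lower and those of RRM2B and SAMHD1 apart and higher, beside 15.9% and 19.3% of all tested genes. No member exceeded an absolute log2 difference of 1 between genotypes, which 0.362% of genes did with vehicle and 0.396% with pyridostatin.

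Whether the response to pyridostatin differed between the genotypes was tested as an interaction in the same limma model. No member passed, and 0 of the 11881 genes did (0%), with 521 genes (4.39%) at an unadjusted p under 0.05. The smallest unadjusted p among the members was that of RRM1 (0.0467, adjusted p = 0.999), with an interaction of -0.090 on the log2 scale (95% interval -0.18 to -0.0016). For RRM2B the interaction was 0.13 (95% interval -0.24 to 0.50), and it ranged from 0.032 without WT pyridostatin replicate 3 to 0.27 without WT vehicle replicate 2. The calls of RRM1, RRM2 and RRM2B in PARP3-/- libraries alone and of DUT in WT alone are thus not shown to differ between genotypes.

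Since the 2 effects of pyridostatin were not shown to differ, their mean was taken as a further contrast of the same limma model, added after the effects in each genotype had been seen. In all, 6 of the 9 genes passed, against a background of 13.9% of genes in either direction, 6.24% lower and 7.71% higher. DUT fell by 0.30 (SE 0.0481, adjusted p = 0.00264), TK1 by 0.28 (SE 0.0581, adjusted p = 0.0107), RRM2 by 0.15 (SE 0.0256, adjusted p = 0.00402) and RRM1 by 0.10 (SE 0.02, adjusted p = 0.00833). RRM2B rose by 0.44 (SE 0.0834, adjusted p = 0.00687). DCTPP1 fell by 0.19 (SE 0.058, adjusted p = 0.0492), a call lost in 13 of 20 alternatives, among them those without any 1 of the libraries except WT vehicle replicate 1 (adjusted p up to 0.11). Those of RRM2B, TK1 and DUT held in all 20, and those of RRM1 and RRM2 in all but quantile normalization. TYMS (0.044, adjusted p = 0.296), DCK (-0.12, adjusted p = 0.2) and SAMHD1 (0.056, adjusted p = 0.547) did not pass. DCK did without WT vehicle replicate 2 (-0.16, adjusted p = 0.04), and TYMS did, as an increase, under quantile normalization (adjusted p = 0.025).

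The genotype difference averaged over both treatments, added in the same way, passed in 3 of the 9 genes, against a background of 19.1% in either direction, 6.95% lower and 12.2% higher. RRM1 was lower (-0.096, SE 0.02, adjusted p = 0.00629), as was RRM2 (-0.11, SE 0.0256, adjusted p = 0.0113), while SAMHD1 was higher by 0.22 (SE 0.0546, adjusted p = 0.0168), a difference of 16.4%. For RRM1 the limma difference was -0.051 (SE 0.0283, adjusted p = 0.339) with vehicle and -0.14 (adjusted p = 0.0085) with pyridostatin. Within single treatments, RRM1 and RRM2 passed only with pyridostatin and SAMHD1 with neither. The call of SAMHD1 held in all 20 alternatives, among them that without WT vehicle replicate 2 (0.17, adjusted p = 0.00189). The call of RRM2 was lost under quantile normalization alone (adjusted p = 0.0639). TK1, at 0.066 (SE 0.0581, adjusted p = 0.496), passed in 1 of the 20, that without WT vehicle replicate 2 (0.12, adjusted p = 0.0189). TYMS, at -0.067 (SE 0.0258, adjusted p = 0.102), passed in 3 of the 20 (adjusted p down to 0.0205). These were the median shift, the removal of each library's trend with transcript length and the fit without WT vehicle replicate 1. The 3 of 9 members called here and the 2 of 9 called with pyridostatin stand beside 19.1% and 10.9% of all genes, and these shares were not compared by a test. PARP3 itself was called higher in PARP3-/- libraries in this averaged contrast, by 0.21 (SE 0.0506, adjusted p = 0.0154).

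**Figure D3:**
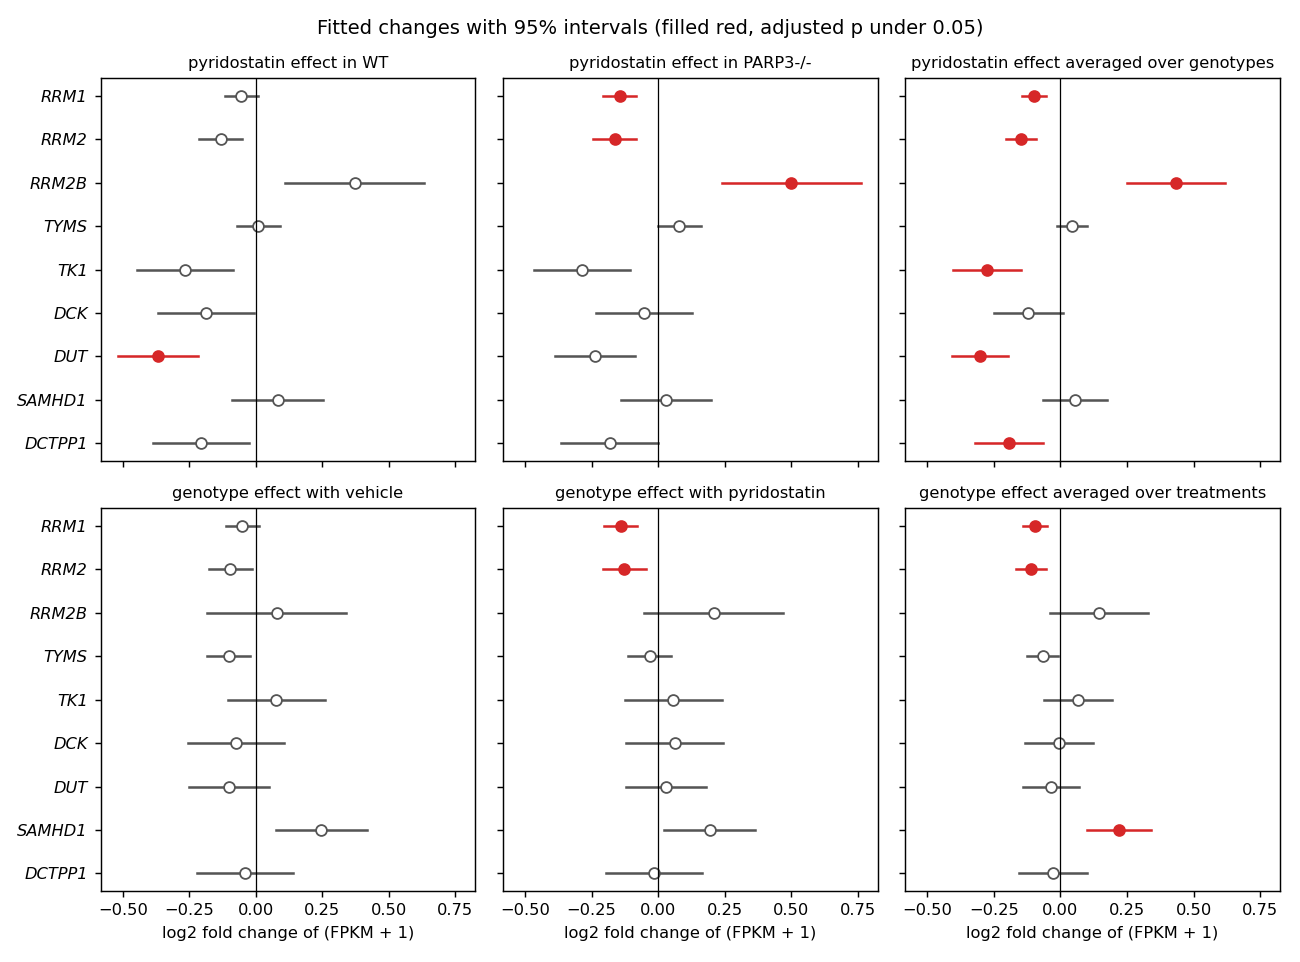
Log2 fold change of (FPKM + 1) (horizontal axis) with its 95% interval for the 9 genes in the pyridostatin comparisons (top) and the genotype comparisons (bottom), each within a group and averaged. Filled red points have an adjusted p under 0.05 by limma, and RRM2B is the 1 gene called to the right of 0 in the top row while SAMHD1 is the 1 so called in the bottom row.

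The wider pathways were counted over lists of genes that exclude the 9 members. Under pyridostatin, 1.38% of all tested genes were called lower in WT and 2.52% in PARP3-/- libraries. An unadjusted p under 0.05 was found for 20.3% of all tested genes in WT. Of 27 tested kinases, phosphatases and salvage enzymes of deoxynucleotides, 0 passed in WT under pyridostatin (5 at an unadjusted p under 0.05) and 2 fell in PARP3-/- libraries, UPP1, a uridine phosphorylase, by 0.28 (adjusted p = 0.0472) and NT5C3A, a pyrimidine nucleotidase, by 0.22 (adjusted p = 0.029). Of 12 genes of the folate and thymidylate cycle, 2 fell in WT and 4 in PARP3-/- libraries. GGH, which removes glutamates from folates, fell by 0.32 and 0.18 (adjusted p = 0.00122 and 0.0213). The mitochondrial one-carbon enzymes SHMT2 and MTHFD2 fell in PARP3-/- libraries by 0.20 and 0.19 (adjusted p = 0.0444 and 0.0153).

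Of 14 genes of de novo purine synthesis, 1 fell in WT and 2 in PARP3-/- libraries, beside 1.38% and 2.52% of all tested genes. A single call in a list is not read as a result about the list. GMPS, which makes GMP, fell by 0.15 and 0.26 (adjusted p = 0.0304 and 0.00147), and PAICS by 0.17 in PARP3-/- libraries (adjusted p = 0.00896). None of the 5 genes of de novo pyrimidine synthesis passed in either, and none had an unadjusted p under 0.05. The median log2 change in WT and PARP3-/- libraries was -0.13 and -0.14 over the 9 members, -0.11 and -0.093 over the folate list, -0.10 and -0.078 over the purine list, 0.035 and -0.017 over the pyrimidine list and -0.066 and -0.048 over the kinase and salvage list, beside 0.0030 and 0.0021 over all tested genes.

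Of all tested genes, 1.38% were called lower and 2.79% higher in WT, and 2.52% and 3.05% in PARP3-/- libraries. Among 20 genes of S phase, chosen as context for RRM2 and TK1, 11 fell and 0 rose in each genotype, with a median log2 change of -0.23 in WT and -0.28 in PARP3-/- libraries. The transcription factor E2F1 fell by 0.44 and 0.39 (adjusted p = 0.00474 and 0.00803), and the replicative helicase subunit MCM6 by 0.33 and 0.38 (adjusted p = 0.000933 and 0.000425). Among 24 tested targets of p53, the context for RRM2B, 22 rose in WT and all 24 in PARP3-/- libraries, with a median of 0.67 and 0.65. CDKN1A rose by 1.14 and 1.05 (adjusted p = 1.12e-05 and 3.21e-05) and MDM2, the ubiquitin ligase of p53, by 0.86 in PARP3-/- libraries (adjusted p = 0.000204). RRM2B, at 0.37 and 0.50, was below the median of that list in both genotypes, and RRM1, RRM2 and DCTPP1 had smaller fitted decreases than the median of the S phase list in both. TK1, at -0.27 and -0.29, had larger ones in both, while DUT, at -0.37 and -0.24, was past that median in WT and short of it in PARP3-/- libraries.

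**Figure D4:**
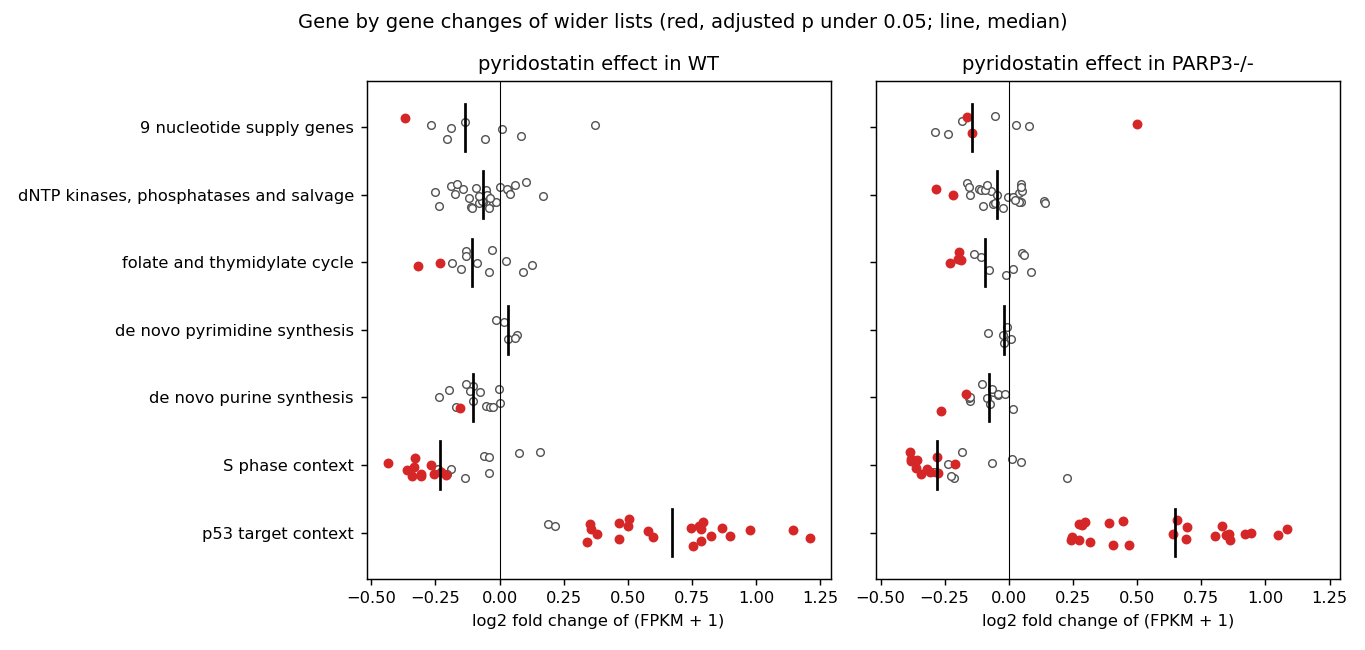
Log2 fold change of (FPKM + 1) under pyridostatin (horizontal axis) of each tested gene of the 9 nucleotide supply genes and of 6 wider lists (rows, points spread vertically only for legibility), in WT (left) and PARP3-/- (right) libraries. Red points have an adjusted p under 0.05 and black lines are medians, which lie at -0.13 and -0.14 for the 9 genes, at -0.23 and -0.28 for the S phase list and at 0.67 and 0.65 for the p53 targets.

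Between genotypes, calls in the kinase and salvage list went in both directions. The mitochondrial thymidine kinase TK2 was higher in PARP3-/- libraries by 0.28 with vehicle and 0.25 with pyridostatin (adjusted p = 0.0116 and 0.0215), ADA, which deaminates deoxyadenosine, by 0.31 and 0.22 (adjusted p = 0.00308 and 0.0162), and DCTD, which makes dUMP from dCMP, by 0.15 and 0.14 (adjusted p = 0.0349 and 0.0451). AK4, a mitochondrial adenylate kinase, was lower by 0.26 and 0.24 (adjusted p = 0.0188 and 0.0243). In the folate list 1 of 12 genes was lower with each treatment, GGH with vehicle (-0.18, adjusted p = 0.0148) and MTHFD2 with pyridostatin (-0.16, adjusted p = 0.0188). In the purine list ATIC was lower with vehicle (-0.16, adjusted p = 0.0216), and PAICS (-0.16, adjusted p = 0.00465) and GMPS (-0.15, adjusted p = 0.0149) with pyridostatin. Of the S phase list 1 of 20 genes was higher with each treatment, MCM3 with vehicle (0.13, adjusted p = 0.0315) and CCNE1 with pyridostatin (0.20, adjusted p = 0.0403). Of the p53 targets 7 of 24 were higher with vehicle and 3 of 24 with pyridostatin, FAS and PLK3 in both. These counts stand beside 6.4% of all genes higher and 3.01% lower with vehicle and 7.07% and 3.85% with pyridostatin, so that a single call in a list is not read as a result about the list. Markers moved as well, KRT19 by 0.85 upward and EPCAM and CDH1 by 0.53 and 0.42 downward with vehicle (adjusted p = 2.25e-05, 0.00126 and 0.00117). The haematopoietic marker CD68 was higher in PARP3-/- libraries by 0.37 with vehicle and 0.43 with pyridostatin (adjusted p = 0.00336 and 0.00108), and the fibroblast marker COL1A1 by 0.45 and 0.38 (adjusted p = 0.00667 and 0.0168), each the 1 tested gene of its list. The part of such differences between the lines in the values of RRM1, RRM2 and SAMHD1 was not tested.

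Across the 12 libraries, the pattern of RRM2 on the log2 scale was most like that of RRM1 among the members (Pearson r = 0.91) and, outside them, the most similar patterns included those of MTHFD2 (r = 0.96), B4GALT4 (0.96), CCT6A (0.95) and PSMD12 (0.95). RRM2B ran opposite to DCTPP1 (r = -0.83), TK1 (-0.80), DUT (-0.78), RRM1 (-0.73) and RRM2 (-0.70). Its most similar genes outside the members were SHOC2, JMY, KPNA4, PUM2 and CDC14B (r = 0.97, 0.97, 0.97, 0.97 and 0.96). TYMS followed none of the other members closely (r from -0.58 to 0.10). These correlations are descriptions over libraries that share treatment, genotype and the deviation of WT vehicle replicate 2.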

How the data were processed

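RNA-seq of 12 libraries (4 groups of 3) was analysed from 1 deposited table of FPKM values, 1 column per library and no column left over. The authors made stranded mRNA libraries, sequenced single-end reads of 75 bases and deposited FPKM from Cufflinks, so that alignment and scaling to transcript length and depth are already in the values. The submitters' processing notes name bcl2fastq 2.16, STAR 2.5 and Cufflinks, and the builds hg19 and mm9 with no role given. The table holds no counts and low values were not whole reads throughout (45.0% to 50.0% of values under 3.5 reads lay within 0.05 of a whole read), so no count test was made, and depths and reads per gene, from GENCODE 29 transcript lengths less 200 bases, are approximate.

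Values were used as log2(FPKM + 1). The 11881 genes whose mean reached 1 FPKM were fitted with limma 3.58.1 in R 4.3.3, 1 model of the 4 groups (eBayes with a trend, two-sided), with Benjamini-Hochberg adjustment over all of them. Mean and SD are on the FPKM scale. The procedure was tested on simulated data with independent normal noise for each gene and library. That simulation held no deviation shared by the genes of a library, such as one with transcript length. Alternatives were a pseudocount of 0.1, no filter or a minimum mean of 5 FPKM, a shift to a common median or quantile normalization, a fit of only the compared libraries, no trend in eBayes, a replicate block and each of the 12 libraries left out. Removal of each library's trend with transcript length (93.7% of tested genes had a length) and the 2 averaged contrasts were added after seeing the data.

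The 9 genes, the wider lists and the tests were chosen with earlier results of these data known. Beside the members, the rule named PARP3, CDKN1A, up to 5 genes per list and comparison with an adjusted p under 0.05 and the largest change, of which some are printed, and the 5 genes most correlated with RRM2 and with RRM2B. Some genes that the rule names are not reported here. Promoter windows came from RefSeq on GRCh38.p14 and overlapping exons from GENCODE 29. Same-numbered libraries were not taken as pairs. Python 3.11.15, numpy 2.4.6, pandas 2.3.3 and matplotlib 3.10.9 were used.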

Additional observations from a re-analysis of the deposited data

How the results depend on the processing

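For the 9 genes, 21 alternatives were computed for each pairwise comparison and 20 for the interaction and the averaged contrasts. Of all 1296 fold changes so recomputed, 1187 kept their direction and side of the threshold, 53 lost a call, 25 gained one and 31 changed sign. No member reached an absolute log2 fold change of 1 with an adjusted p under 0.05 in any of them. None of the 31 changes of sign was of a called value.

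Under pyridostatin in WT, the members called numbered 1, and 2 after the median shift and after removal of the length trend (RRM2 besides DUT), but 0 in the fit of only the 6 compared libraries, where 65 genes passed in place of 495. In PARP3-/- libraries that fit called 5 members in place of 3. Between genotypes with vehicle it called 532 genes in place of 1118, and the members called were 1 after the median shift and 2 after removal of the length trend, in place of 0. With pyridostatin, a pseudocount of 0.1, a minimum mean of 5 FPKM, quantile normalization and eBayes without a trend each left 1 member called, RRM1. The number of genes with an interaction was 1 with a pseudocount of 0.1 and 1 without a filter, in place of 0. TYMS in WT turned to -0.024 after the median shift, and DCTPP1 between genotypes with pyridostatin to 0.0027 under quantile normalization. The causes were not tested.

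With each library left out, the members called ranged from 0 to 2 for pyridostatin in WT (0 without WT pyridostatin replicate 1 or 3) and from 0 to 5 in PARP3-/- libraries (0 without PARP3-/- vehicle replicate 2 or 3 or PARP3-/- pyridostatin replicate 3, 1 without PARP3-/- pyridostatin replicate 1 or 2). They ranged from 0 to 2 between genotypes with vehicle and from 1 to 3 with pyridostatin. The genes called ranged from 178 to 706, from 254 to 1559, from 746 to 1644 and from 806 to 2298 in these comparisons, the highest each time without WT vehicle replicate 2, and from 0 to 1 for the interaction. Where the sign changed, the log2 range was -0.022 to 0.031 for TYMS and -0.026 to 0.15 for SAMHD1 (pyridostatin in WT), -0.00088 to 0.055 for SAMHD1 (pyridostatin in PARP3-/-), -0.063 to 0.16 for RRM2B and -0.11 to 0.046 for DCTPP1 (genotype with vehicle), and -0.00049 to 0.11 for DCK, -0.0070 to 0.098 for DUT and -0.063 to 0.018 for DCTPP1 (genotype with pyridostatin). For the interaction it was -0.13 to 0.046 for TK1, -0.12 to 0.056 for SAMHD1 and -0.062 to 0.093 for DCTPP1, and for the averaged genotype difference -0.049 to 0.029 for DCK and -0.062 to 0.015 for DCTPP1.

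Same-numbered libraries deviated together only weakly (correlations of -0.12 to 0.216 over genes, some below 0), and 2, 5, 6 and 2 of 6 libraries in the 4 comparisons were most alike to the library of their own number, a hint from the data and not from the design. With the replicate block RRM2B in PARP3-/- libraries and RRM2 between genotypes with pyridostatin lost their calls, which left 1 member called in the latter comparison. The split of all calls moved with scaling, from 66.9% higher to 45.6% after the median shift for pyridostatin in WT, from 54.8% to 45.3% in PARP3-/- libraries (49.1% after removal of the length trend), from 68.0% to 51.7% (57.8% under quantile normalization) for genotype with vehicle and from 64.8% to 53.1% with pyridostatin. At the median length of each gene's coding transcripts, depth limits RRM2B, DUT and SAMHD1 most. Their fewest reads in a library were about 324, 455 and 338, a counting error of 5.56%, 4.69% and 5.44%. The coding transcripts of RRM2B span 201 to 4931 bases and those of SAMHD1 513 to 5298, so these values depend on the length chosen.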
